A study of Drosophila melanogaster with 3 samples.

Results

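The proteasome subunit genes of Drosophila melanogaster were examined for binding of the transcription factor Eagle. A gene was taken as a member when it was protein-coding in the Ensembl annotation and its symbol began with Prosalpha, Prosbeta, Rpn or Rpt followed by a digit. This gave 48 genes among 13945 protein-coding genes on the main chromosome arms. Of the 48, 25 encode subunits of the core particle and 23 encode subunits of the regulatory particle. A symbol ending in T or R, with or without a digit after it, marked 16 paralogues, 11 of core and 5 of regulatory subunits, and the other 32 are called standard subunits here.

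The data were ChIP-seq peaks from 3 biological replicates that formed 1 group. The animals were of the strain labelled eg-GFP and carried a transgene for a fusion of Eagle with enhanced GFP (eg-eGFP in the labels), and chromatin from whole prepupae at an age of 2 days was fragmented by sonication and precipitated with an antibody against GFP. Eagle, the product of the gene eg, is a zinc finger protein of the nuclear receptor family, known for its part in specifying neurons of the embryonic nerve cord. Whole prepupae hold many tissues, so the lists do not tell in which cells a peak arose, and the tagged protein stands for the untagged one. With 1 group there was no comparison between conditions, and the control library was not analysed here.

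The proteasome is the barrel-shaped protease that degrades proteins tagged with ubiquitin. Its core particle stacks rings of alpha subunits, which gate the entrance, around rings of beta subunits, some of which carry the proteolytic sites. The regulatory particle caps the core: the Rpt subunits form a ring of ATPases that unfolds substrates, and the Rpn subunits bind ubiquitin, remove it and hold the particle together. Nearly every cell uses the standard subunits. Drosophila also has paralogues of many of them, several of which are known for expression in the testis.

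A promoter peak was a peak of the conservative list whose summit, the base of highest enrichment, lay within 1000 bp of an annotated transcription start site (TSS). The conservative list is a set of peaks that passed an irreproducible discovery rate (IDR) of 0.01 and held 9369 peaks on the main arms. Of the 48 members, 9 had such a peak (18.8%, 95% Wilson interval 10.2 to 31.9). Among all protein-coding genes 3800 had one (27.2%, 26.5 to 28), which lies inside the members' interval. The 9 were Prosalpha3, Prosalpha4 and Prosbeta2 of the core, and Rpn3, Rpn5, Rpn12, Rpn13, Rpt3 and Rpt5 of the regulatory particle.

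The sequences under 4 of these summits are shown because they are the bases that the peaks mark at Rpn3 (the highest signal among the members), at Prosbeta2 (a catalytic subunit), at Rpn12 (the lowest signal) and at Rpt5 (a summit inside a very short promoter shared by a pair of genes). They are reference sequence of release 6 (dm6), plus strand, 5′ to 3′, which is also the direction in which these 4 genes are transcribed. Each run reaches up to 75 bases to either side of the summit and stops where an annotated exon begins. Capitals mark the 11 bases centred on the summit. The Rpn3 run is chr2L:19051698-19051789, the Prosbeta2 run chr3L:14999726-14999876, the Rpn12 run chr3L:16582842-16582992 and the Rpt5 run chr3R:23752835-23752875.
Rpn3: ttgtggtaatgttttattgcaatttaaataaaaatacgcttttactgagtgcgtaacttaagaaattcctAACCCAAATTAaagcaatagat
Prosbeta2: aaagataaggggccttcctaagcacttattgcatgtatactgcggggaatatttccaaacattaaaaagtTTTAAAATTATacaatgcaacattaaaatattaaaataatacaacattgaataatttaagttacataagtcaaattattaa
Rpn12: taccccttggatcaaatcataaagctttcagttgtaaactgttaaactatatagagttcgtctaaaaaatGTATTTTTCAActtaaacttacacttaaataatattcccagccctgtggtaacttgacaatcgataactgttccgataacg
Rpt5: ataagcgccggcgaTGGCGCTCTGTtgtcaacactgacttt
The Prosbeta2 window is the poorest in G and C of the 9 summit windows, with 24.5% over 151 bases. The median over the 9 windows was 32.5%, against 36.4% over all 9369 conservative peaks, at promoters or elsewhere. The Rpt5 run is the whole stretch between the annotated starts of Rpt5 and RanBP3.

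In the core particle, 3 of 25 genes had a promoter peak (12%, 4.17 to 30.0), and in the regulatory particle 6 of 23 did (26.1%, 12.5 to 46.5). Among standard subunits alone the counts were 3 of 14 for the core (21.4%, 7.57 to 47.6) and 6 of 18 for the regulatory particle (33.3%, 16.3 to 56.3). These intervals overlap, and each contains the 27.2% of all protein-coding genes. By family, 2 of 7 standard alpha subunits, 1 of 7 standard beta subunits, 4 of 12 Rpn subunits and 2 of 6 Rpt ATPases had a peak. Standard subunits together had 9 of 32 (28.1%, 15.6 to 45.4). None of the 16 paralogues had one, which allows a share of up to 18.8% when a count of 3 is taken as the limit, and the Wilson interval reached 19.4%. The difference between standard subunits and paralogues was not tested, and their intervals overlap.

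**Figure D1:**
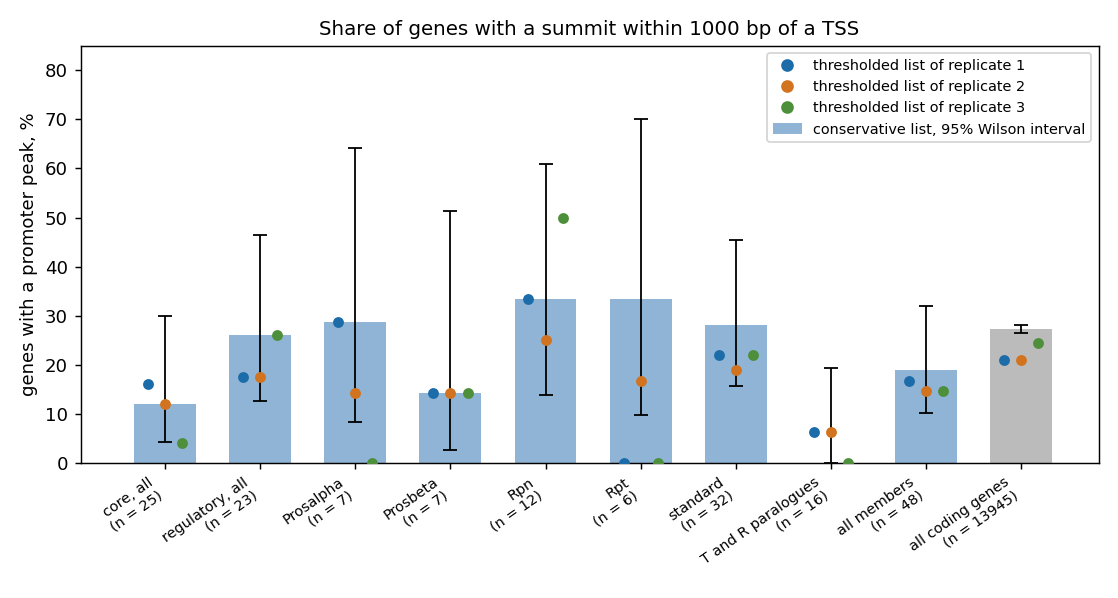
Percentage of genes with a summit within 1000 bp of a TSS (y axis) for each group of genes (x axis). Bars give the conservative list with 95% Wilson intervals and points give the 3 replicate lists. The bar of the standard subunits (28.1%) is level with that of all protein-coding genes (27.2%), the regulatory bar stands above the core bar with overlapping intervals, and the bar of the paralogues is at 0.

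Each replicate also has a list of its own, and the share of members was below that of all genes in each, though inside the members' wide intervals. In the thresholded lists of replicates 1, 2 and 3, 8, 7 and 7 members had a summit within 1000 bp of a TSS (15.3% ± 1.20, SD, n = 3). All protein-coding genes had 20.9%, 21.0% and 24.3% in the same lists (22.1% ± 1.91, SD, n = 3). The members' Wilson intervals (8.70 to 29.6 in replicate 1, 7.25 to 27.2 in each of the others) contain these shares. The core had 4, 3 and 1 genes (10.7% ± 6.11), and the regulatory particle had 4, 4 and 6 (20.3% ± 5.02). Core and regulatory particle were level at 4 genes in replicate 1 and furthest apart in replicate 3. Standard subunits had 7, 6 and 7 (20.8% ± 1.80), and the paralogues had 1, 1 and 0. Only 3 members were in all 3 lists (6.25%, against 15.5% of all protein-coding genes), and 12 were in at least 1 (25.0%, against 29.3%).

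Among the 9 members with a conservative peak, support from the single replicates differed widely. Rpn3, Prosbeta2 and Rpn13 were in all 3 thresholded lists, which is 3 of 9, where 56.6% of the 3800 genes with a promoter peak were. Prosalpha3 was in the lists of replicates 1 and 2, Rpn5 in those of replicates 2 and 3, and Rpt5 in that of replicate 2. Prosalpha4, Rpn12 and Rpt3 were in no thresholded replicate list, so 6 of 9 were in at least 1 list, where 90.0% of the genes with a peak were. The median signal of the 9 was 142 (74.3 to 412), against 176 over the 3800 genes (2.12 to 3996). Signal is the enrichment value that the authors deposited for each peak, and each list has its own scale. Values of the conservative list and of the replicate lists are therefore not compared with each other, and the SD over replicates includes differences of scale between their lists.

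Rpn3, a scaffold subunit of the lid of the regulatory particle, had the strongest peak of the family. The gene (FBgn0261396) lies at chr2L:19051790-19053681 on the plus strand, and the peak spans 182 bp from 19051702 to 19051883. Its conservative signal was 412, rank 990 of 9369. The replicate signals were 141, 132 and 144 in replicates 1 to 3 (139 ± 6.61, SD, n = 3). The summits of the replicates lay 11 bp downstream, 6 bp upstream and 4 bp downstream of the TSS, and that of the conservative list 17 bp upstream. All 4 summits were thus within 17 bp of the start.

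Prosbeta2, the beta subunit with trypsin-like activity, was the only catalytic subunit with a peak. The gene (FBgn0023174) lies at chr3L:14999951-15001319 on the plus strand. The conservative signal was 215 (rank 2617), with the summit 150 bp upstream, in intergenic sequence. The replicate signals were 65.6, 88.6 and 55.5 (69.9 ± 17.0, SD, n = 3), all thresholded. The start of mRpL39, a mitochondrial ribosomal protein gene transcribed in the other direction, lay 135 bp from the summit, nearer than that of Prosbeta2. Prosbeta1 and Prosbeta5, which carry the caspase-like and chymotrypsin-like activities, had no peak.

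Both alpha subunits with a peak belong to the gating ring. Prosalpha3 (FBgn0261394, chr2R:20994900-20996118, plus strand) had a conservative signal of 181 (rank 3318) with the summit 85 bp upstream in intergenic sequence. Its replicate signals were 66.8, 52.9 and 60.7 (60.2 ± 6.95, SD, n = 3). The first 2 values are from thresholded lists, and the third peak, with an IDR of 0.0202, is only in the ranked list, which holds peaks on both sides of the threshold. Prosalpha4 (FBgn0004066, chrX:16276270-16277587, plus strand) had a signal of 91.2 (rank 7050), 300 bp upstream in an intron of kat80, a katanin subunit gene. Its replicate signals of 24.2, 25.9 and 33.0 (27.7 ± 4.66, SD, n = 3) were all from ranked lists only, with IDRs of 0.698, 0.302 and 0.0345. In each replicate the value of Prosalpha4 was below that of Prosalpha3.

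Rpn13, a ubiquitin receptor, had a peak at the most upstream of its annotated starts. The gene (FBgn0033886) lies at chr2R:13958545-13960404 on the minus strand, and the signal was 166 (rank 3699), 47 bp upstream. The replicate signals were 65.2, 54.4 and 39.3 (53.0 ± 13.0, SD, n = 3), each past the threshold. Rpn5, a lid subunit (FBgn0028690, chr3R:5789493-5791569, plus strand), had a signal of 142 (rank 4492), 319 bp upstream in an intron of Hat1, a histone acetyltransferase gene. Its replicate signals were 33.8, 43.9 and 48.5 (42.0 ± 7.52, SD, n = 3), and the first, with an IDR of 0.0126, was outside the threshold. Rpn12, another lid subunit (FBgn0028693, chr3L:16583028-16584022, plus strand), had the lowest signal of the 9, 74.3 (rank 8017), 111 bp upstream. It had ranked values of 25.1 in replicate 1 and 31.4 in replicate 3 (28.3 ± 4.47, SD, n = 2), with IDRs of 0.0916 and 0.0314, and no overlapping peak in replicate 2.

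Of the 6 standard Rpt ATPases, Rpt3 and Rpt5 had a peak. Rpt5 (FBgn0028684, chr3R:23752876-23754623, plus strand) had a signal of 90.1 (rank 7124) 22 bp upstream, and 20 bp from the start of RanBP3, a gene for a Ran-binding protein. Its replicate signals were 35.5, 39.0 and 25.5 (33.3 ± 6.98, SD, n = 3). Only the value of replicate 2 was past the threshold, and the IDRs of the others were 0.0109 and 0.554. Rpt3 (FBgn0028686, chrX:11125101-11126785, plus strand) had a signal of 81.2 (rank 7640), 451 bp upstream, inside the annotated 5′ UTR of CG11122. Its replicate signals were 22.7, 28.8 and 36.6 (29.4 ± 6.93, SD, n = 3), all from ranked lists only, with IDRs of 0.661, 0.136 and 0.0207. For Prosalpha4 and Rpt3 every replicate peak was thus on the far side of the threshold, while the conservative peak passed it.

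**Figure D2:**
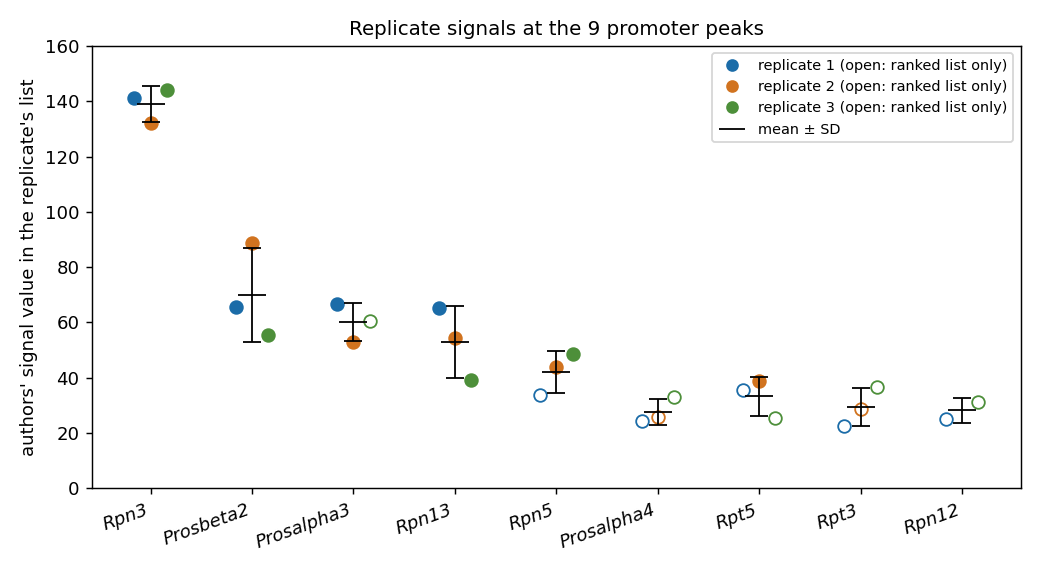
Signal of the peak at each of the 9 subunit genes (x axis) in replicates 1 to 3 (y axis, from 0, authors' signal value of the replicate lists), bars giving the mean ± SD, and with filled points for thresholded lists and open points for ranked lists only. Rpn3 is the highest in each replicate, Prosbeta2, Prosalpha3 and Rpn13 lie between 39.3 and 88.6, and the points of Prosalpha4, Rpt3 and Rpn12 are all open.

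The 9 summits lay 17 to 451 bp from a start. All 9 were upstream of the member's nearest TSS, where 74.5% of the 3800 genes with a peak had an upstream summit. They were also all within 500 bp, against 76.9%, and the median distance was 111 bp, against 182 bp. The farthest inside the 1000 bp window was Rpt3 at 451 bp. The nearest outside it were at Prosbeta6 (1122 bp, downstream), Rpn9 (1448 bp), Prosbeta5R1 (1458 bp), Rpn11 (1491 bp) and Rpn2 (1673 bp). No member had a conservative summit inside the gene. The 39 members without a promoter peak had their nearest conservative summit at 1122 to 70825 bp, with a median of 10772 bp.

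Many of the peaks were at a subunit gene with a neighbour that starts close by in the opposite direction. At Prosalpha4 and Rpn5 the summit lay in an intron of this neighbour, and at Rpt3 in its 5′ UTR. A divergent partner, a coding gene on the other strand with a start within 1000 bp upstream, was annotated for 26 of 48 members (54.2%), against 36.2% of all protein-coding genes. Standard subunits had a partner in 22 of 32 (68.8%) and the paralogues in 4 of 16 (25.0%). Of the 26 members with a partner 8 had a promoter peak (30.8%), against 39.5% of all coding genes with a partner. Of the 22 without a partner 1 had a peak (4.55%), against 20.3% of all coding genes without one. That gene was Rpn12.

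In 5 of the 9 the start of another coding gene was nearer to the summit than that of the member. The nearer genes were mRpL39 at Prosbeta2 (135 bp), Hat1 at Rpn5 (100 bp), kat80 at Prosalpha4 (53 bp), RanBP3 at Rpt5 (20 bp) and CG11122 at Rpt3 (76 bp). The peak lists do not tell to which gene of such a pair a peak belongs. Counted only for the gene with the nearest start, 4 of the 48 members kept a peak (8.33%), against 21.3% of all protein-coding genes counted in the same way. These were Prosalpha3, Rpn3, Rpn12 and Rpn13. The partners of 3 of these started farther from the summit, l(2)37Bb at 161 bp for Rpn3, CtsL1 (a cathepsin gene) at 224 bp for Rpn13 and dgt3 (an augmin subunit gene) at 434 bp for Prosalpha3.

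**Figure D3:**
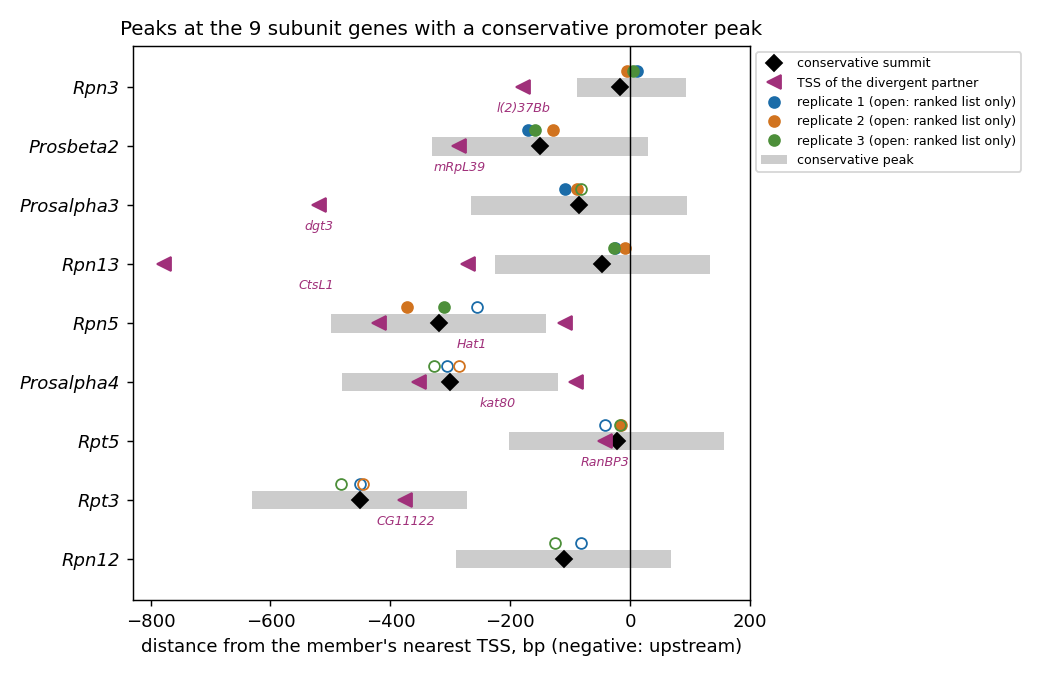
Position of the conservative peak (grey bar), its summit (diamond) and the replicate summits (circles, open where only the ranked list held them) relative to the nearest TSS of each of the 9 genes at 0 (x axis, bp, negative upstream), with the starts of the divergent partner as triangles. All 9 diamonds lie left of 0, and at Prosbeta2, Rpn5, Prosalpha4, Rpt5 and Rpt3 a triangle lies nearer to the diamond than 0 does.

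Of the 39 members without a conservative promoter peak, 6 had a summit within 1000 bp of a TSS in the thresholded list of at least 1 replicate. Together 15 of 48 members were in the conservative list or a replicate list (31.2%, against 32.0% of all protein-coding genes). By family these were 3 of 7 standard alpha, 1 of 7 standard beta, 8 of 12 Rpn and 2 of 6 Rpt genes, and 1 paralogue. The Rpn share was 66.7% (39.1 to 86.2), and the difference between families was not tested. Rpn11, the deubiquitinase of the lid (FBgn0028694), had a thresholded summit in replicate 1 (33.0, 128 bp upstream), and ranked summits of 26.9 and 24.6 at 105 and 108 bp in replicates 2 and 3. The series' ranked list, from which the conservative peaks are drawn, held it at a signal of 92.3, above that of Rpt5 (90.1), but with an IDR of 0.0137 where Rpt5 had 0.00951. These are the values nearest to the threshold on either side. The next inside was Prosalpha4 (0.00710), and the next outside were Prosbeta2R2 (0.0209), Prosalpha5 (0.0264), Rpn8 (0.0623) and Prosbeta1 (0.0909). In the 3 other thresholded lists made for the series, Rpn11 was in 2, Prosalpha5 in 2, Rpn9 in 2 and Rpn8 in 1.

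The lid subunit genes Rpn6, Rpn8 and Rpn9 also had replicate summits. Rpn6 (FBgn0028689) had 38.2 in the thresholded list of replicate 3, 83 bp upstream, and a ranked 40.6 at 98 bp in replicate 2, with none in replicate 1. Rpn8 (FBgn0002787) had thresholded values of 34.3 in replicate 1 and 43.8 in replicate 3, nearer to the start of Slik, a kinase gene, at 107 and 65 bp. Rpn9 (FBgn0028691) had 45.4 in the thresholded list of replicate 3, 114 bp downstream, and a ranked 19.3 at 141 bp in replicate 1. In the core, Prosalpha2 (FBgn0086134) had 38.4 in the thresholded list of replicate 1, 152 bp upstream, and ranked values of 20.1 and 19.1 at 144 and 130 bp in the others.

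Prosalpha6T (FBgn0032492), a testis paralogue of the alpha subunit gene Prosalpha6, was the only paralogue with a thresholded summit. It had 57.8 in replicate 1, 623 bp upstream, and 71.0 in replicate 2, 598 bp upstream, with IDRs of 0.000269 and 0.000162. In replicate 3 no summit was within 1000 bp even in the ranked list, and the series' ranked list had none either. Its replicate 2 value was above those of Prosalpha3 (52.9) and Rpn13 (54.4) in the same list. Prosalpha6 itself (FBgn0250843), which starts 135 bp from the divergent gene Npc1a, had no summit in any ranked list. The other 15 paralogues had values of 8.78 to 24.5 in the replicates' ranked lists where they had any. In the series' ranked list, which has its own scale, their values were 20.6 to 61.6 where they had any.

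The ranked lists, which include peaks far below the threshold, held a summit at more of the members. The series' ranked list had a summit within 1000 bp at 26 of 48 members (54.2%, 40.3 to 67.4), against 64.0% of all protein-coding genes, which lies inside the interval. For standard subunits the core had 5 of 14 (35.7%, 16.3 to 61.2) and the regulatory particle 13 of 18 (72.2%, 49.1 to 87.5). These intervals overlap. In the ranked lists of replicates 1 to 3 the standard core had 8, 7 and 6 of 14. The standard regulatory genes had 14, 13 and 17 of 18 there, and all protein-coding genes 67.5%, 62.1% and 65.0%. In replicate 3 the intervals of core (21.4 to 67.4) and regulatory particle (74.2 to 99.0) did not overlap. In replicates 1 and 2 they did, and the difference was not tested. By family the series' ranked list had 3 of 7 alpha, 2 of 7 beta, 8 of 12 Rpn and 5 of 6 Rpt genes. In the replicates' own ranked lists 18 members had a summit in all 3, 14 in 2, 3 in 1 and 13 in none (27.1%, against 17.6% of all protein-coding genes).

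The 13 members without any ranked summit included 4 of the 7 standard beta genes: Prosbeta3, Prosbeta4, Prosbeta5 and Prosbeta7. The alpha genes Prosalpha1 and Prosalpha6 and the ubiquitin receptor gene Rpn10 completed the 7 standard ones. The 6 paralogues were Prosalpha1R, Prosalpha4T1, Prosbeta5R2, Rpn12R, Rpn13R and Rpt6R. Prosbeta5, the chymotrypsin-like subunit gene, starts 94 bp from the divergent dgo, and its nearest conservative summit was 11607 bp away. Prosbeta3 and Prosbeta4 start 230 bp from Iru and 417 bp from Nubp1, and their nearest summits were at 4651 and 11279 bp. A close divergent neighbour was thus also annotated at genes without a peak.

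The other standard subunits had no summit in a thresholded replicate list, and most of their ranked summits were weak. In the core, Prosalpha5 reached 28.4, 20.7 and 43.3 in replicates 1 to 3, the last 911 bp upstream with an IDR of 0.0116. That last value was above those of Rpn13 (39.3), Rpt3 (36.6), Prosalpha4 (33.0), Rpn12 (31.4) and Rpt5 (25.5) in the same list. It was below those of Rpn3 (144), Prosalpha3 (60.7), Prosbeta2 (55.5) and Rpn5 (48.5). Prosalpha7 had 15.8 and 23.9 in replicates 1 and 2, Prosbeta1 had 18.8 and 16.4 in replicates 1 and 3, and Prosbeta6 had 14.8 and 16.3 in replicates 1 and 2. In the regulatory particle, the scaffold genes Rpn1 (16.6 and 11.9 in replicates 2 and 3) and Rpn2 (9.08, 9.61 and 15.9) and the lid gene Rpn7 (20.8 in replicate 3) were low throughout. Among the ATPases, Rpt1 had 13.0, 24.9 and 12, Rpt2 had 24.5 and 7.98 in replicates 1 and 3, Rpt4 had 19, 19.9 and 8.54, and Rpt6 had 8.36 and 8.10 in replicates 1 and 3. No IDR of these regulatory genes was under 0.0239, the value of Rpt4 in replicate 1.

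**Figure D4:**
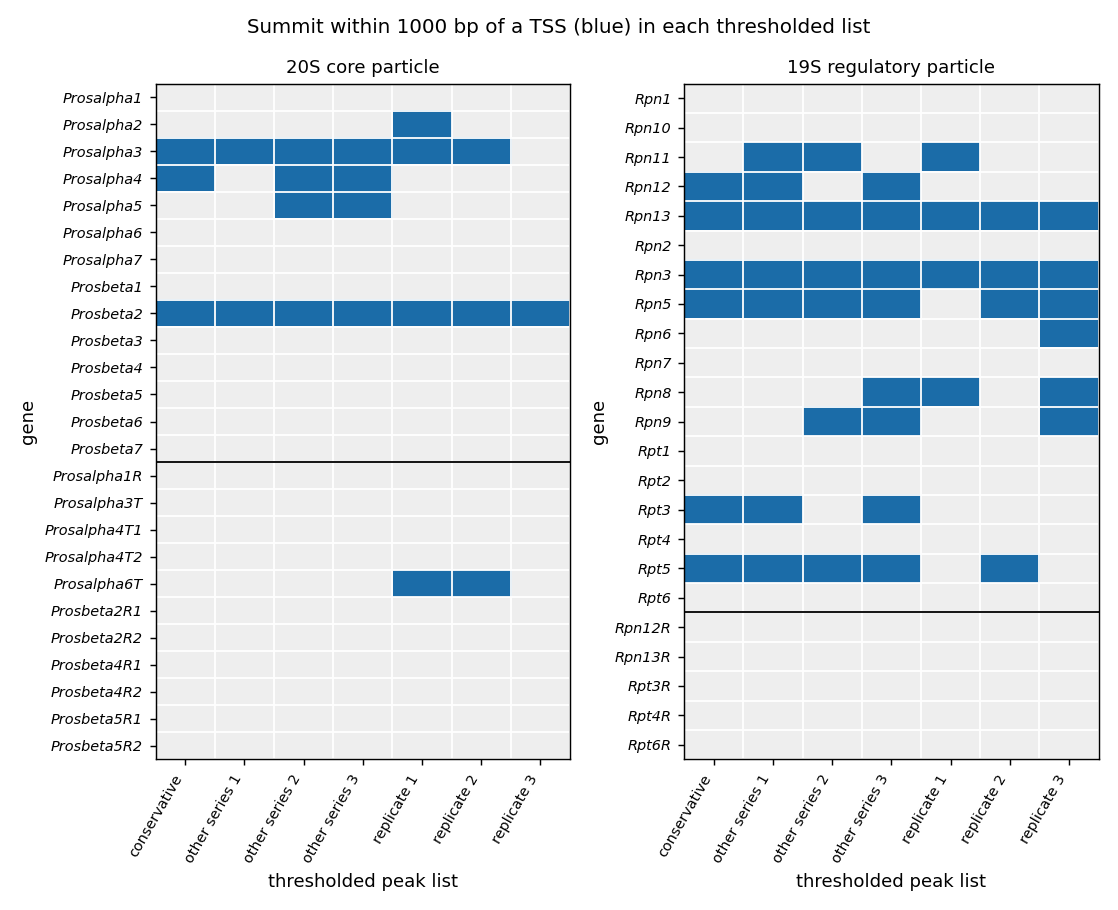
All 48 subunit genes (rows, core on the left and regulatory particle on the right, standard subunits above the black line and paralogues under it) against the conservative list, the 3 other series-wide thresholded lists and the 3 replicate thresholded lists (columns). Blue cells mark a summit within 1000 bp of a TSS and grey cells none. Rpn3, Rpn13 and Prosbeta2 are blue in every column, and Prosalpha6T is the only paralogue with blue cells.

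Sequence around the gene starts was then searched for 11 short strings on both strands, from 250 bases before to 50 bases after the start. TATCGATA, the DNA replication-related element bound by DREF in Drosophila, was found at 12 of 48 members (25.0%), against 9.36% of all protein-coding genes. All 12 are standard subunits (37.5% of 32), and 6 each are core and regulatory. Of these 12 genes 6 had a promoter peak, against 33.1% of all genes with the string. Of the 36 members without it 3 had a peak (8.33%), against 26.6% of all genes without it. Among the standard subunits alone, 3 of the 20 without the string had a peak (15.0%). This split by TATCGATA was chosen after the values were seen.

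The matches at 7 of the 12 genes are shown because the same letters occur at genes with and without a peak. Each run has 28 bases of release 6 sequence, 5′ to 3′ on the strand of the gene, and capitals mark the match. The first 4 genes had a promoter peak and the other 3 had none. In the order printed the runs are chr2L:19051583-19051610, chr3L:14999931-14999958, chr3L:16582802-16582829 and chr3R:23752820-23752847 on the plus strand, chr2L:10221325-10221352 on the plus strand, and chr3L:16610445-16610472 and chr3R:22462034-22462061 on the minus strand.
Rpn3: gttatcggagTATCGATAtcgaaaaggc
Prosbeta2: catgaatataTATCGATAcaatatcgat
Rpn12: tgttaaaataTATCGATAttaaagcaca
Rpt5: tcgctgtcacTATCGATAagcgccggcg
Prosalpha6: ccgaatccctTATCGATAcccgatacac
Prosbeta6: tatgtataccTATCGATAacgtttaagc
Rpn7: cggtataattTATCGATAattttggggt
The matches began 197 bp (Rpn3), 10 bp (Prosbeta2), 216 bp (Rpn12), 46 bp (Rpt5), 16 bp (Prosalpha6) and 44 bp (Prosbeta6) upstream of the gene start, and 3 bp downstream of it at Rpn7. That of Rpn3 lies in the annotated 5′ UTR of the divergent neighbour, that of Rpt5 spans the start of RanBP3, and that of Rpn7 in its own 5′ UTR. From the match to the conservative summit the distance was 176 bp at Rpn3, 143 bp at Prosbeta2, 101 bp at Rpn12 and 20 bp at Rpt5.

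Most of the 6 genes with both the string and a promoter peak had it outside the bases around the summit. In the 151 bases centred on the summit, TATCGATA was present at 2 of the 9 genes, Prosalpha3 (6 bp from the summit) and Rpt5, and at 0.907% of the 9369 conservative peaks. The 9369 peaks were not limited to promoters, whereas all of the 9 are promoter peaks. TATAAA, the letters of a TATA box, was present at 3 of the 9 (Prosalpha3, Prosalpha4 and Rpn5), against 23.9% of peaks. None of the other 9 strings was present in these windows of the 9 genes.

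In percentage points the other strings at the gene starts stood nearer to the shares of all genes than TATCGATA did. TGACNNNGC, the letters of an antioxidant response element as bound by the factor Cnc, was found at 6 of 48 members (12.5%, against 8.63%), none of them among the 9 with a peak. With only the 150 bases before the start searched it was at 1 member (2.08%, against 4.24%), so its side of the share of all genes turned. GGTCACAC, a core promoter motif, was found at 5 members (against 7.70%), all standard, and the 2 strings overlapped at Prosbeta3 and Rpn1. AGGTCA, the core hexamer of nuclear receptor sites, was found only at Prosalpha6T (against 5.88%), and TGAGTCA, an AP-1 site, only at Rpn5 (against 2.49%). TAGAGCA, the letters of a site of Knirps, a relative of Eagle, was found at Prosalpha1, Prosalpha1R and Rpt1 (against 2.24%). CAGCTG was found only at Rpt3 and Rpt3R (4.17%, against 17.7%), the widest gap among these other strings. GAGAGAG was found at 2 paralogues (against 5.87%) and CACGTG at none (against 4.20%). TATTTAT was found at 9 members (18.8%, against 26.2%, or against 14.7% in the 150 bases) and TATAAA at 18 (37.5%, against 45.8%). A match describes letters in this window and is not evidence of binding.

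**Figure D5:**
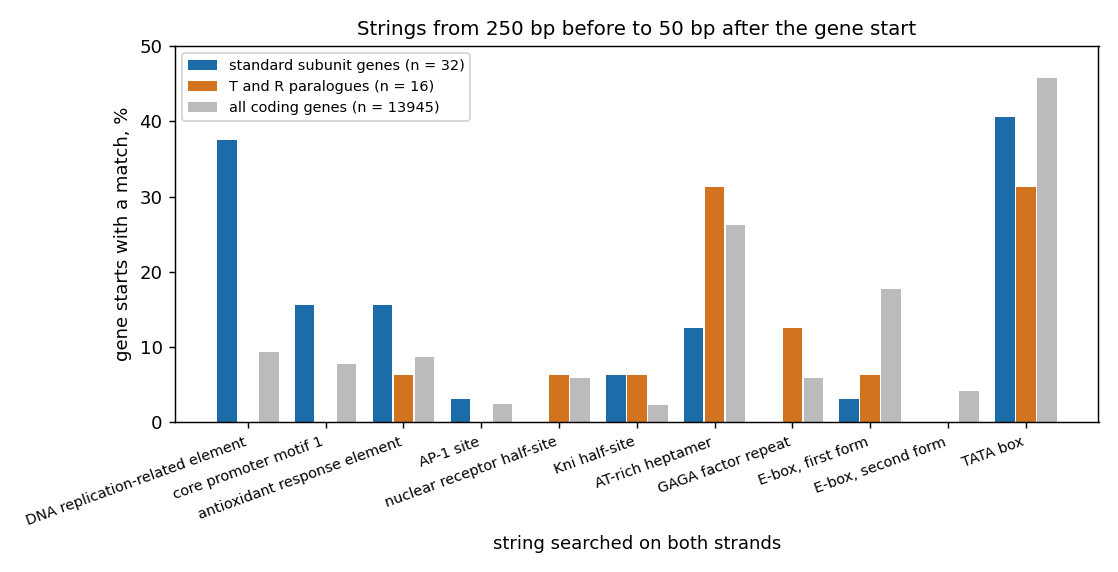
Percentage of gene starts holding each searched string (axis from 0, in percent) for standard subunits, paralogues and all protein-coding genes. The bars of the DNA replication-related element (TATCGATA) reach 37.5% at the standard subunits, are absent from the paralogues and stand at 9.36% over all genes.

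Other genes of the ubiquitin-proteasome pathway were counted as 1 list of 30, of which 29 could be matched to the annotation. Of these 29, 8 had a promoter peak (27.6%, 14.7 to 45.7), beside the 27.2% of all protein-coding genes. Of the 8, 4 were in all 3 replicate lists, where 56.6% of all genes with a promoter peak were. The median signal of the 8 was 240, against 176 over the 3800 genes with a promoter peak. Pomp, the chaperone of core assembly, had a signal of 322, 223 bp upstream, with replicate values of 112, 90.4 and 131. The gene cnc, whose product is the Drosophila regulator of proteasome gene expression under stress, had 304, 336 bp downstream, with 103, 89.0 and 111.

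Keap1, the inhibitor of Cnc, had a signal of 625, with the summit 925 bp upstream and nearer to the start of kuk (626 bp). The gene maf-S, whose product pairs with Cnc on DNA, had 177, 684 bp downstream of its own start and 82 bp from that of CG11110. The highest signal of the list, 675, was at alien, a subunit of the COP9 signalosome, a complex related to the lid, with the start of CG18661 nearer to the summit (102 bp) than its own (124 bp). The remaining ones were Ufd1 (173), a cofactor of the unfolding ATPase TER94, PI31 (96.5), a proteasome regulator whose summit was nearer to ADD1 (196 bp), and Uba1 (87.8), the ubiquitin-activating enzyme. No promoter peak was found at TER94, the ubiquitin receptor genes Rad23, Ubqn and rngo, the deubiquitinase genes Uch-L5 and Usp14, the lid subunit gene Sem1, the ubiquitin genes Ubi-p63E and Ubi-p5E or the other COP9 signalosome genes listed. Of the listed genes without a promoter peak, TER94, Npl4, CSN3 and CSN5 each had a summit in the thresholded list of 1 replicate. Rad23 lies on chromosome 4, on which no thresholded list held a peak.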

How the data were processed

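Peaks were obtained from chromatin of 3 replicates of 1 group. Per the labels, coordinates are on dm6. The authors deposited peak lists with a signal value per peak (column 7), a score and the summit offset, some thresholded and some ranked with an IDR. The deposited score was at least 830 in the conservative list, which on that scale is an IDR of at most 0.01. Scores served only for that check. Per the deposited file listing, the series-wide lists, the conservative one included, derive from the alignments of all 3 replicates. The aligner, the peak caller and the exact pooling scheme were not given in the sources used here, and control libraries were not analysed here. The files hold no counts, so depth is unknown and the precision of a signal cannot be given. The intervals cover counting of genes only.

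Summits were assigned to any TSS of protein-coding genes of Ensembl release 115 (BDGP6.54) within 1000 bp, and 1 conservative peak outside the main arms was left out. The text names all 9 members with a conservative promoter peak, the others by their nearest conservative or ranked summits, and neighbours whose start is nearer to the summit or divergent, and 1 neighbour is not reported here. Shares have 95% Wilson intervals, which treat genes as independent, although neighbouring genes share peaks. No test was run, because there was 1 group. The members and lists were chosen with earlier results of these data known. Strings were searched in the RefSeq genome, release 6. Support by replicates used an overlap of at least 1 bp. Alternatives were other windows, lists, signals, TSS choices and assignments. Another 32 columns of per-sample values were not used. The window rule was tested on simulated summits, where 200 of 200 were assigned correctly as inside or outside 1000 bp. This checked the window only and not the choice between neighbouring genes. The scripts ran under matplotlib 3.10.9, SciPy 1.17.1, pandas 2.3.3, NumPy 2.4.6 and Python 3.11.15.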

Additional observations from a re-analysis of the deposited data

How the results depend on the processing

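The 9 members with a promoter peak became 14 with a window of 2000 bp (29.2%, against 33.3% of all coding genes). They became 5 with the upper part of the signals (10.4%, against 17.6%). With each peak given to the nearest coding gene they became 4 (8.33%, against 21.3%). The ranked lists of replicates 1 to 3 gave 31, 25 and 29. Leaving out each replicate in turn, with peaks kept only where both other replicates overlap them, gave 3 to 4. For the core (3) these were 5 at 2000 bp, 1 by nearest gene, 1 in the thresholded list of replicate 3, 15, 12 and 12 in the ranked lists, and 1 to 2 without a replicate. For the regulatory particle (6) they were 3 in the upper part, 3 by nearest gene, 16, 13 and 17 ranked, and 2 to 3 without a replicate. Standard subunits (9) gave 5, 4, then 22, 20 and 23 ranked, and 3 to 4 without a replicate. The paralogues (0) had 1 at 2000 bp (Prosbeta5R1), 1 in the thresholded lists of replicates 1 and 2, and 9, 5 and 6 ranked. All coding genes (3800) had 2448 within 200 bp, 2452 in the upper part, 9412, 8654 and 9060 ranked, and 2239 to 2437 without a replicate. The cause of these shifts was not tested beyond what each setting counts. The members' count stayed within 1.5 times of 9 with windows of 200 bp (6) and 500 bp (9), with the other thresholded lists of the series (9, 10 and 12), with any base of the peak (9) and with gene starts (9). In those other lists the members' shares were 18.8%, 20.8% and 25.0%, against 24.1%, 30.9% and 24.8% of all coding genes. Standard subunits had 28.1%, 31.2% and 37.5% there. The windows of 200 and 500 bp gave 12.5% and 18.8%, against 17.6% and 23.2%. Any base of the peak gave 18.8% against 28.2%, and gene starts 18.8% against 25.1%. Rpn3 and Rpn13 kept their peak in all 19 settings, Prosbeta2 in 18, and Prosalpha4 and Rpt3 in 9. With 150 bases before the start and none after it, TATCGATA was found at 7 members (14.6%), 6 of them core, against 6.79% of all genes. In that window GGTCACAC was at 0 (against 3.46%) in place of 5 members and TAGAGCA at 0 (against 1.00%) in place of 3. CAGCTG (against 9.70%) and GAGAGAG (against 3.97%) were at 0 in place of 2 each. TGACNNNGC was at 1 (2.08%, against 4.24%) in place of 6, so that its share passed under that of all genes. The 9 members with TATTTAT (18.8%) were then above all genes (14.7%), and TATAAA was level at 29.2% in both. No paired analysis was possible because there was 1 group and no test. The files give no depth, so weak peaks cannot be told from peaks missed at low coverage.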
